A study of Mus musculus with 16 samples.

Results

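Gluconeogenesis makes glucose from lactate, amino acids and glycerol, and it bypasses the steps of glycolysis that cannot run backwards. Pyruvate carboxylase (Pcx) makes oxaloacetate from pyruvate in mitochondria, and phosphoenolpyruvate carboxykinase, cytosolic (Pck1) or mitochondrial (Pck2), converts oxaloacetate to phosphoenolpyruvate. Fructose-1,6-bisphosphatase (Fbp1) removes a phosphate further up the pathway. The glucose-6-phosphate carrier of the endoplasmic reticulum (Slc37a4) and the catalytic subunit of glucose-6-phosphatase (G6pc) then release free glucose. Liver and kidney are the best known sites of the whole route, and the small intestine of suckling rodents is a further one.

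These 6 genes were chosen by name and were followed among the 24421 genes counted in each library. All 6 were found, all had counts in every library, and all were among the 13429 genes that passed the filter on low counts. The samples were epithelial cells released with EDTA from the jejunum (middle small intestine) and ileum (its last part) of wild-type C57BL6/J mice, without treatment. The mice were 6 days old (P6, suckling age) or 36 days old (P36, after weaning). Each of the 8 mice gave both regions, which made 4 groups of 4 libraries: P6 jejunum, P6 ileum, P36 jejunum and P36 ileum. In each group replicates 1 and 2 were female and replicates 3 and 4 male, and a replicate number marked 1 mouse within an age.

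Libraries held between 12159237 and 25947276 counts. Levels are given as CPM (counts scaled to the library total and corrected by TMM factors), which compare libraries, and as CPM per kb of exon, which compare genes. Epithelial markers were high in all 16 libraries (summed over Epcam, Cdh1, Krt8 and Krt19, 2906 to 12090 CPM). Markers of smooth muscle and fibroblasts summed to 363 CPM in replicate 2 of the P6 ileum, against 4.88 to 61.6 CPM in the other libraries. Replicate 4 of the P6 ileum stood apart in epithelial genes: Krt8 was 256 CPM there and 1113 to 1331 CPM in the other P6 ileum libraries, and Krt19 was 35.7 CPM against 268 to 354 CPM. The P36 ileum varied in enterocyte markers, with Fabp2 at 7270, 1576, 471 and 1725 CPM in replicates 1 to 4. The liver marker Alb was at most 0.235 CPM, although Ttr reached 350.0 CPM and Cps1, also an enzyme of enterocytes, 3478 CPM. In bulk samples of this kind, fewer cells of a type and less RNA per cell cannot be told apart.

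The genes lie at separate loci (mm10): Pck1 at chr2:173153073-173159253, Pck2 at chr14:55540266-55550017, G6pc at chr11:101367730-101377903, Pcx at chr19:4510472-4621752 and Slc37a4 at chr9:44396927-44402968 on the plus strand, and Fbp1 at chr13:62864753-62888282 on the minus strand. No exon of a member overlapped an exon of another gene in the counting annotation. Because Pck1, G6pc and Fbp1 had the largest differences with age and Pcx moved the other way, the sequence before their starts is printed to let the promoters be compared. The sequences are RefSeq promoters (GRCm38.p6), 5′ to 3′ on the strand of the gene, beginning 250 bases before the start and ending at the start or where GENCODE M21 annotates an untranslated region. Capitals mark CCAAT boxes (CCAAT, or ATTGG on the other strand) and the core letters of the cAMP response element (TGACGT, or ACGTCA on the other strand).
Pck1, chr2:173152823-173153047, + strand: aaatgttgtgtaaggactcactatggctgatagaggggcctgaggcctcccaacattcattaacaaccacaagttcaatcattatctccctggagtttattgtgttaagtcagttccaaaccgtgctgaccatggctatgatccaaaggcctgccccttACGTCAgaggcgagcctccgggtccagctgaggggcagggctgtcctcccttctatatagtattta
G6pc, chr11:101367466-101367560, + strand: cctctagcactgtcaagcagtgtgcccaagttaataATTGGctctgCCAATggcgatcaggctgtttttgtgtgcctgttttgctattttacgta
Fbp1, chr13:62888283-62888532, - strand: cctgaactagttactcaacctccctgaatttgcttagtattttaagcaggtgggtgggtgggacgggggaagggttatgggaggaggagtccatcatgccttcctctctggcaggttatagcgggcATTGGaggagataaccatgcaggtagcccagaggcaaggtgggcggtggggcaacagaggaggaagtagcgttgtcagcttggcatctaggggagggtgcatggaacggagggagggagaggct
Pcx, chr19:4510222-4510471, + strand: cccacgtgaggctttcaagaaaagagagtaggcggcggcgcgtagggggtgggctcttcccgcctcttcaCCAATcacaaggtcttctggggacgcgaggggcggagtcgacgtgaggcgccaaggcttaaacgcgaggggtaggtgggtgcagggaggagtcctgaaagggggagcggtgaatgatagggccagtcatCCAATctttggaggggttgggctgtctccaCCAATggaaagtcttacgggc

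The cAMP response core of Pck1 lay at -91 to -86 from the start. A second member, Slc37a4, held TGACGT at -61 to -56, and 6.47% of all 32851 RefSeq promoters of this length held it on either strand. G6pc had CCAAT boxes at -214 to -210 and -204 to -200 and the letters TATAAA at -29 to -24. Fbp1 had 1 CCAAT box at -124 to -120, Pck2 had 1 at -41 to -37, and Pcx had 3 at its first start. TATAAA also lay at -32 to -27 from the third start of Slc37a4. CCAAT was present in 33.8% of promoters and TATAAA in 12.4%. The letters searched for a forkhead site (TGTTTAC), HNF4 (CAAAGTCCA), HNF1 and the glucocorticoid receptor were in none of the windows of the members. These matches describe letters in a window and not bound sites.

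Pck1, Fbp1, G6pc and Slc37a4 had their highest levels in P6 jejunum, and none of their libraries there overlapped another group. Per kb of exon, Pck1 was the most abundant member there (1425 ± 355.4 CPM per kb, SD, n = 4), followed by Fbp1 (622 ± 59.4), G6pc (149 ± 34.0), Slc37a4 (97.3 ± 3.51), Pck2 (6.71 ± 0.865) and Pcx (4.02 ± 0.278). In the P6 ileum Fbp1 led (235.5 ± 27.1 CPM per kb) and Pck1 was next (150.5 ± 48.7). At P36 the order was different again. In the P36 jejunum Pck1 (60.5 ± 23.8) and Slc37a4 (45.2 ± 3.65) led, with overlapping ranges, and the other members lay between 8.18 and 19.0 CPM per kb on average. In the P36 ileum no member exceeded 17.4 CPM per kb on average, the value of Slc37a4, and G6pc was lowest at 1.63 ± 1.02. Pck1 made up 61.3% ± 4.59 of the summed CPM per kb of the 6 genes in P6 jejunum and 21.4% ± 12.1 in the P36 ileum. The share of Pcx went from 0.178% ± 0.0309 to 16.2% ± 4.37 between the same groups.

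**Figure D1:**
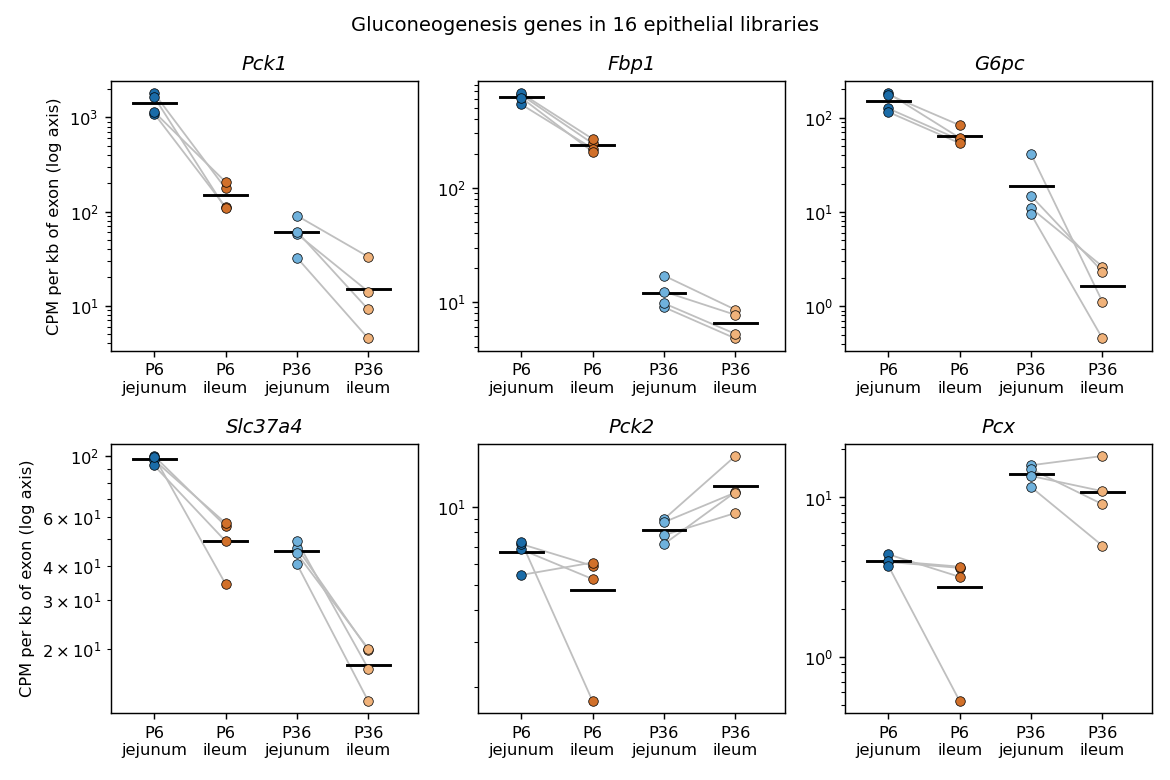
Level of each gluconeogenesis gene in the 16 libraries, as CPM per kb of exon on a log axis. Points are libraries, bars are group means and grey lines join the jejunum and ileum of a mouse. Pck1, Fbp1, G6pc and Slc37a4 step down from P6 to P36 in each region, while Pcx steps up in both and Pck2 in the ileum.

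To ask how the regions differ within an age, the jejunum was compared with the ileum. At P6, 3 of the 6 genes passed an adjusted p of 0.05, all higher in the jejunum, against 25.9% of all tested genes called in either direction, 11.1% higher and 14.8% lower in the jejunum. At P36, 4 of 6 passed, again all higher in the jejunum, against 16.1% of all genes in either direction, 8.3% higher and 7.8% lower in the jejunum. The median log2 fold change over the members was 1.10 at P6 and 1.12 at P36, beside -0.05 and -0.04 over all tested genes. With the fold minimum used by the study (an absolute log2 fold change above 2), 1 member passed at each age, Pck1 at P6 and G6pc at P36, against 6.5% and 3.6% of all genes. To ask how each region changes with age, P36 was compared with P6. In the jejunum 5 of 6 passed (1 rose and 4 fell), against 51.6% of all genes (24.7% rose and 26.9% fell). In the ileum all 6 passed (2 rose and 4 fell), against 55.7% (25.5% rose and 30.1% fell). With the fold minimum 3 members passed in each region, against 16.4% of all genes in both. The libraries of the groups did not overlap for 5 members between the P6 regions (30.1% of all tested genes), 4 between the P36 regions (26.9%), 5 between jejunum ages (63.8%) and 6 between ileum ages (44.4%). Without P6 ileum replicates 2 and 4, which stood apart in markers, 3 members were still called between the P6 regions and 6 with age in the ileum. Most genes thus changed with age, and a count of calls with age says little about these members beside the sizes given next. Markers moved with age too. The 4 epithelial markers summed to 3198 to 3324 CPM in P6 jejunum and 6457 to 6630 CPM in P36 jejunum, and to 2906 to 4480 CPM in P6 ileum and 9962 to 12090 CPM in P36 ileum. Krt8 and Krt19 were higher at P36 without overlap in both regions, with Krt8 at 2834 to 2980 against 819 to 946.5 CPM in the jejunum. Epcam was 1137 to 1380 CPM in P6 jejunum and 1446 to 1582 CPM in P36 jejunum, and it overlapped between the ages in the ileum. Cdh1 overlapped in the jejunum and was 792 to 867.5 CPM in P6 ileum and 921 to 1064 CPM in P36 ileum. The 4 markers of proliferating crypt cells summed to 514 to 664 CPM in P6 jejunum and 848 to 1068 CPM in P36 jejunum, and to 287 to 677 and 691.5 to 1491 CPM in the ileum. In the jejunum Mki67, Top2a and Olfm4 were higher at P36. Lgr5 was lower, at 3.25 to 5.79 CPM against 15.2 to 22.9 CPM at P6, and it overlapped between the ages in the ileum. The enterocyte sum overlapped between the ages in both regions, although its members moved both ways in the jejunum. Alpi, an intestinal phosphatase, was 3053 to 4106 CPM in P6 jejunum and 648 to 852 CPM in P36 jejunum. Cdhr2 was 2647 to 3129 CPM at P6 and 1476 to 1855 CPM at P36. Vil1 was higher at P36, at 3603 to 4278 CPM against 1420 to 1578 CPM. So was Fabp2, at 6461 to 10190 CPM against 3916 to 6002 CPM. In the ileum Alpi was 1469 to 2704 CPM at P6 and 43.9 to 550 CPM at P36, while Vil1, Fabp2 and Cdhr2 overlapped between the ages. Between the P6 regions the enterocyte sum did not overlap, at 11330 to 14750 CPM in the jejunum and 5141 to 8167 CPM in the ileum. Fabp2 (3916 to 6002 against 239 to 949 CPM) and Alpi (3053 to 4106 against 1469 to 2704 CPM) were higher in the P6 jejunum. Vil1 and Cdhr2 overlapped between the P6 regions. At P36 the enterocyte sum was 12190 to 17170 CPM in the jejunum and 14700, 5161, 2403 and 5943 CPM in replicates 1 to 4 of the ileum. Alpi was 648 to 852 CPM in the P36 jejunum and 43.9 to 550 CPM in the P36 ileum. Vil1, Fabp2 and Cdhr2 overlapped between the P36 regions. The part of these markers in the age and regional results was not tested.

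**Figure D2:**
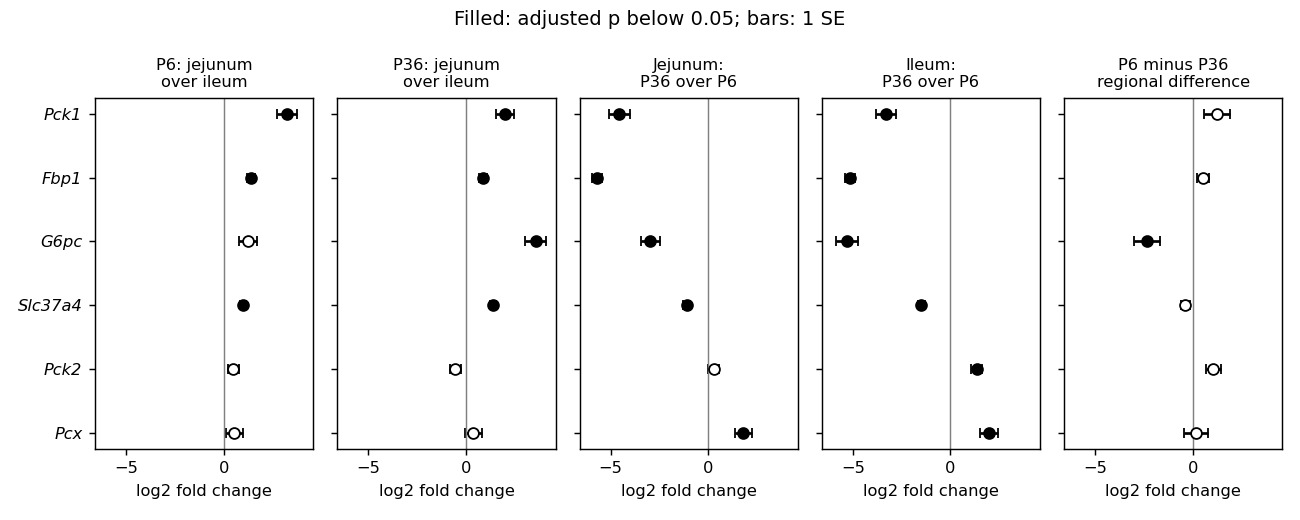
Log2 fold changes of the 6 genes in the 4 comparisons and in the difference between the regional fold changes (P6 minus P36), with 1 SE. Filled points passed an adjusted p of 0.05 in edgeR's quasi-likelihood test. The falls of Fbp1 with age (-5.69 in the jejunum and -5.16 in the ileum) lie farthest from 0 together with that of G6pc in the ileum (-5.32).

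Pcx, which supplies the oxaloacetate, rose with age in both regions. It was 16.8, 18.8, 17.1 and 15.9 CPM in replicates 1 to 4 of the P6 jejunum and 15.5, 13.6, 15.7 and 2.26 CPM across P6 ileum libraries. At P36 it was 68.0, 64.3, 49.6 and 58.2 CPM in its jejunum libraries and 77.7, 38.7, 21.3 and 46.8 CPM in ileum libraries. Every P36 library lay above every P6 library of its region, and the P36 ileum spread over the widest range. There Pcx, like Fabp2, was highest in replicate 1 and lowest in replicate 3, and the part of this marker in the result was not tested. The rise was 3.50-fold in the jejunum (1.81 ± 0.44 on the log2 scale with its SE, as for all values below, adjusted p = 0.00269) and 3.92-fold in the ileum (1.97 ± 0.44, adjusted p = 0.00138). The regions did not differ past the threshold at P6 (0.55 ± 0.43, adjusted p = 0.381) or at P36 (0.38 ± 0.42, adjusted p = 0.616). The lowest value was in replicate 4 of the P6 ileum, the library low in Krt8 and Krt19, and the part of that library's other differences in the result was not tested. Without it the rise in the ileum stayed called.

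Pck1, the cytosolic carboxykinase and a classical target of fasting signals in liver, had the largest regional difference of the members at P6. It reached 2877, 4722, 2995 and 4313 CPM in P6 jejunum and 292, 460.2, 540.3 and 282 CPM across P6 ileum libraries. At P36 it was 236.5, 151, 84.7 and 160.5 CPM in its jejunum libraries and 86.4, 36.9, 11.7 and 23.8 CPM in ileum libraries. The P6 regions were far apart, whereas at P36 the highest ileum library reached the lowest jejunum library. The jejunum was 9.47-fold above the ileum at P6 (3.24 ± 0.50, adjusted p = 0.000201) and 3.99-fold at P36 (1.99 ± 0.48, adjusted p = 0.00964), and it was higher in 4 of 4 mice at both ages. With age Pck1 fell 23.6-fold in the jejunum (-4.56 ± 0.54, adjusted p = 2.98e-06) and 9.91-fold in the ileum (-3.31 ± 0.51, adjusted p = 4.5e-05). The regional difference itself did not differ between the ages past the threshold (1.25 ± 0.66, adjusted p = 0.275). Replicate 1 of the P36 ileum, highest in Pck1, was also highest in Fabp2, and replicate 3, lowest in Pck1, was lowest in Fabp2, and the part of this marker in the result was not tested. Without replicate 1 of the P36 ileum the regional log2 fold change at P36 was 2.71 (adjusted p = 0.000415), and without replicate 3 it was 1.69 (adjusted p = 0.0187). Without replicate 1 the log2 fold change with age in the ileum was -4.03 (adjusted p = 3.7e-06), and the difference between the regional fold changes was 0.53 (adjusted p = 0.563).

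Pck2, the mitochondrial carboxykinase, followed another course. It was 23.3, 24.5, 18.5 and 25.0 CPM across P6 jejunum libraries, 17.9, 20.1, 20.7 and 5.98 CPM across P6 ileum libraries, 26.5, 24.4, 30.6 and 29.7 CPM in P36 jejunum and 32.3, 39.0, 53.8 and 38.8 CPM across P36 ileum libraries. It rose 2.53-fold with age in the ileum (1.34 ± 0.28, adjusted p = 0.000871), where the groups did not overlap. In the jejunum the difference with age was 0.28 ± 0.28 (adjusted p = 0.421), and the ranges overlapped. The jejunum was the lower region in 4 of 4 mice at P36 (-0.56 ± 0.28, adjusted p = 0.202) and the higher one in 3 of 4 at P6 (0.50 ± 0.28, adjusted p = 0.214), neither past the threshold. The lowest value was again in replicate 4 of the P6 ileum. Without that library the difference between the regional fold changes was 0.79 with an adjusted p of 0.0247, against 1.06 and 0.118 with it.

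The balance between the cytosolic and mitochondrial carboxykinase, as the ratio of Pck1 to Pck2 per kb, does not depend on the scaling between libraries. It was 160.5, 251, 210.0 and 224 in P6 jejunum, 21.2, 29.7, 33.9 and 61.3 in P6 ileum, 11.6, 8.05, 3.60 and 7.01 in P36 jejunum and 3.48, 1.23, 0.283 and 0.798 in the P36 ileum. Every P6 library thus lay above every P36 library, and in 2 of the 4 P36 ileum libraries Pck2 was the more abundant of the pair. The ratio was 6.17-fold higher in the jejunum at P6 and 7.03-fold at P36, and it fell 29.9-fold with age in the jejunum and 34.1-fold in the ileum. Each of these differences had a two-sided exact permutation p of 0.0286, the smallest possible with 4 against 4, and an adjusted p of 0.0343 over 12 ratio tests. Within mice the jejunum was higher in 4 of 4 at each age, where the smallest possible exact sign-flip p is 0.125 (adjusted p = 0.15). At P36 the call was lost, with an exact permutation adjusted p of 0.0686, without any 1 of the P36 jejunum libraries (2.57 to 3.13) or without P36 ileum replicate 3 (2.21). The P36 regions did not overlap in this ratio in any of these fits.

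Fbp1, the bisphosphatase of liver and kidney, had the steepest fall of the members with age in the jejunum. It was 966, 998, 798 and 914 CPM across P6 jejunum libraries, 362, 397, 328 and 306 CPM across P6 ileum libraries, 13.3, 25.1, 18.2 and 14.4 CPM in P36 jejunum and 7.08, 12.6, 11.4 and 7.76 CPM across P36 ileum libraries. No library of one age came near the other age, and the P36 ileum overlapped no P36 jejunum library. Fbp1 fell 51.7-fold in the jejunum (-5.69 ± 0.26, adjusted p = 9.09e-11) and 35.7-fold in the ileum (-5.16 ± 0.25, adjusted p = 1.81e-10). The jejunum was 2.64-fold above the ileum at P6 (1.40 ± 0.21, adjusted p = 0.000173) and 1.82-fold at P36 (0.87 ± 0.22, adjusted p = 0.0120), in 4 of 4 mice each. The P36 call was lost without replicate 2 of the P36 jejunum (0.65, adjusted p = 0.052) and with scaling by library totals (0.71, adjusted p = 0.0504).

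Fbp2, the bisphosphatase first known from muscle, was the more abundant of the 2 bisphosphatase transcripts at P36. Per kb, Fbp2 was 328 ± 23.7 in P6 jejunum and 237 ± 33.7 in the P6 ileum, below or close to Fbp1. At P36 it was 263 ± 7.77 in the jejunum and 155 ± 11.4 in the ileum, where Fbp1 was 12.0 ± 3.62 and 6.57 ± 1.84. Its own change with age was far smaller than that of Fbp1, at -0.32 ± 0.12 in the jejunum (adjusted p = 0.0356) and -0.62 ± 0.12 in the ileum (adjusted p = 0.000462).

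Slc37a4, the carrier that brings glucose-6-phosphate to the phosphatase, changed least among the genes that fell. It was 251, 243, 232 and 250 CPM across P6 jejunum libraries, 140, 143, 123 and 86.2 CPM across P6 ileum libraries, 117, 123, 102 and 111 CPM in P36 jejunum and 49.6, 42.5, 32.4 and 50.2 CPM across P36 ileum libraries. The P6 jejunum and the P36 ileum stood alone at the ends, and the P6 ileum and P36 jejunum overlapped between them. It fell 2.15-fold in the jejunum (-1.11 ± 0.16, adjusted p = 3.64e-05) and 2.82-fold in the ileum (-1.50 ± 0.17, adjusted p = 1.67e-06). The jejunum was 1.98-fold above the ileum at P6 (0.98 ± 0.16, adjusted p = 0.000376) and 2.60-fold at P36 (1.38 ± 0.17, adjusted p = 3.81e-05), in 4 of 4 mice each.

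G6pc, the enzyme that frees glucose, was the only member whose regional difference changed with age past the threshold. It was 281, 406, 257 and 393 CPM across P6 jejunum libraries, 130, 137, 120.2 and 186 CPM across P6 ileum libraries, 24.6, 92.1, 21.1 and 33.1 CPM in P36 jejunum and 5.92, 2.495, 1.02 and 5.22 CPM across P36 ileum libraries. The 4 groups did not overlap, and the P36 ileum value rests on 242 counts in all. In the P36 ileum G6pc, too, was highest in replicate 1 and lowest in replicate 3, as Fabp2 was, and the part of this marker was not tested. G6pc fell 7.82-fold in the jejunum (-2.97 ± 0.49, adjusted p = 0.000105) and 39.8-fold in the ileum (-5.32 ± 0.56, adjusted p = 9.36e-07). The jejunum was 11.9-fold above the ileum at P36 (3.57 ± 0.52, adjusted p = 0.000219). Without replicate 2 of the P36 jejunum these log2 fold changes were -3.67 with age in the jejunum (adjusted p = 8.99e-06) and 2.87 between the P36 regions (adjusted p = 0.000381). At P6 it was 2.33-fold above (1.22 ± 0.46), which missed the threshold (adjusted p = 0.0633) and passed it with the mouse as a block (1.21, adjusted p = 0.0487), without replicate 4 of the P6 ileum (1.38, adjusted p = 0.0457) and with DESeq2 (adjusted p = 0.0312). The jejunum was higher in 4 of 4 mice at both ages.

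The regional log2 fold change of G6pc was smaller at P6 than at P36 by 2.35 ± 0.67 (-2.35, adjusted p = 0.0405), against 8.69% of all genes called for such a difference (3.68% above 0 and 5.01% below, and 3.37% with the fold minimum). It was -1.64 (adjusted p = 0.0842) without replicate 2 of the P36 jejunum, the library at 92.1 CPM. The call was also lost without any single one of the P6 jejunum libraries (-2.23 to -2.45), P6 ileum replicates 1 and 2 (-2.42 and -2.37), P36 jejunum replicate 4 (-2.45) and P36 ileum replicates 2 and 3 (-2.24 and -2.01). Over these 10 fits the adjusted p was 0.052 to 0.085. For the other members the difference was 0.53 for Fbp1, -0.39 for Slc37a4 and 0.17 for Pcx, none past the threshold, and that of Pcx changed sign in 4 alternatives.

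A relative of G6pc that is expressed in most tissues, G6pc3, rose in the ileum from 18.4 ± 9.97 CPM, with replicate 4 lowest at 3.68 CPM, to 35.8 ± 4.71 CPM (0.95 ± 0.37, adjusted p = 0.0363). G6pc2, known from pancreatic islets, had 0 counts in all 16 libraries. Of the relatives of Slc37a4, Slc37a2 was highest in P6 jejunum, where its mean was 51.5 CPM, against 2.40 CPM across P6 ileum libraries, 0.553 CPM in P36 jejunum and 0.0860 CPM across P36 ileum libraries. Slc37a2 fell with age in the jejunum (-6.54 ± 0.38, adjusted p = 9.89e-10) and in the ileum (-4.76 ± 0.49, adjusted p = 6.62e-07), where it rests on 6 counts at P36. Slc37a3 fell in both regions (-0.84 and -0.35), whereas Slc37a1 rose in the ileum (2.34 ± 0.56, adjusted p = 0.00234).

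The gluconeogenic genes were next set against the glycolytic genes of the opposite reactions in the same library. The ratio of Fbp1 to the summed phosphofructokinase genes (Pfkl, Pfkm and Pfkp, per kb) was 5.85 to 7.43 in P6 jejunum, 2.91 to 5.30 in P6 ileum, 0.0678 to 0.132 in P36 jejunum and 0.0343 to 0.0874 in the P36 ileum. It lay above 1 in every P6 library and below 1 in every P36 library. With Fbp2 added to Fbp1, an alternative chosen after seeing the data, the ratio was above 1 in all 16 libraries, at 9.16 to 11.0 in P6 jejunum, 5.97 to 10.6 in P6 ileum, 2.08 to 2.23 in P36 jejunum and 1.22 to 1.73 in the P36 ileum. The falls with age were then 4.86-fold and 5.33-fold (exact permutation adjusted p = 0.0343 for each). The ratio of Fbp1 alone fell 75.1-fold with age in the jejunum and 67.2-fold in the ileum (exact permutation p = 0.0286 and adjusted p = 0.0343 for each). It was 1.77-fold higher in the jejunum at P6 (adjusted p = 0.0343, exact permutation test) and 1.58-fold at P36 (adjusted p = 0.218, exact permutation test). The P6 call was lost without any 1 of the P6 jejunum libraries (0.78 to 0.89 on the log2 scale, exact permutation adjusted p = 0.0686) and with Fbp2 added (0.43, exact permutation adjusted p = 0.0623). With a library left out, the P6 regions still did not overlap in the ratio of Fbp1 alone. Within mice the jejunum was higher in 4 of 4 at P6, with an exact sign-flip p of 0.125, the smallest possible with 4 mice (adjusted p = 0.15).

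The ratio of G6pc to the summed hexokinase genes (Hk1, Hk2, Hk3 and Hkdc1, per kb) was 2.33 to 3.25 in P6 jejunum and 1.42 to 5.11 in the P6 ileum. It was 0.0668 to 0.245 in P36 jejunum and 0.00578 to 0.0168 in the P36 ileum. This ratio, too, was above 1 at P6 and below 1 at P36 in every library. It fell 27.7-fold with age in the jejunum and 202-fold in the ileum, and the jejunum was 8.77-fold above the ileum at P36 (exact permutation adjusted p = 0.0343 for each). The jejunum was higher in 4 of 4 mice at P36, again with an exact sign-flip adjusted p of 0.15. At P6 the regions differed by 0.26 on the log2 scale (exact permutation adjusted p = 0.571). Without replicate 4 of the P6 ileum, which held the ratio of 5.11, this was 0.65 (exact permutation adjusted p = 0.0312). Hkdc1 was the most abundant of these 4 in every group, from 92.9 CPM on average in the P6 ileum to 529 CPM across P36 jejunum libraries.

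**Figure D3:**
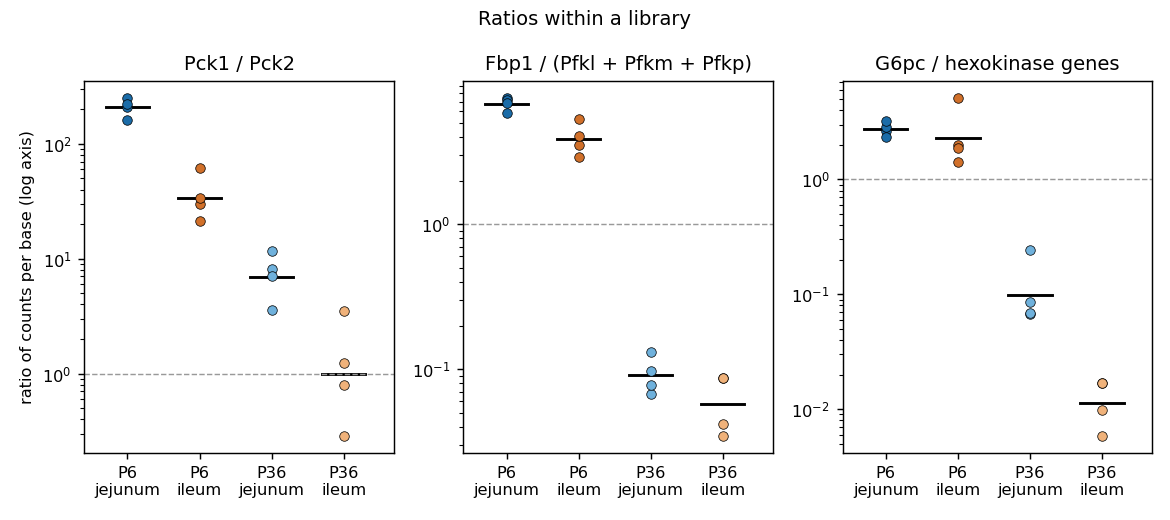
Ratios of gluconeogenic to opposing or alternative transcripts within each of the 16 libraries, as counts per base on a log axis. Points are libraries, bars are geometric means and the dashed line marks a ratio of 1. The Fbp1 and G6pc ratios lie above 1 in all P6 libraries and below 1 in all P36 libraries, but with Fbp2, which is not plotted, the bisphosphatase ratio is above 1 in all 16.

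Genes of the glycolytic side moved in both directions. The counts with age in the lists below stand beside 51.6% of all tested genes called in the jejunum (24.7% rose and 26.9% fell) and 55.7% in the ileum (25.5% rose and 30.1% fell). Of 13 tested genes for hexokinases, phosphofructokinases, pyruvate kinases and the enzymes of fructose-2,6-bisphosphate, 5 rose and 2 fell with age in the jejunum, and 6 rose and 3 fell in the ileum. Hk2, an insulin-responsive hexokinase, rose from 2.20 to 39.1 CPM in the jejunum (4.15 ± 0.16, adjusted p = 1.88e-11) and from 8.08 to 100.6 CPM in ileum libraries (3.64 ± 0.15, adjusted p = 4.5e-11). Hk1 rose by 3.04 and 2.31 on the log2 scale. Pfkm fell in both regions (-1.27 and -0.99), Pfkl fell in the jejunum (-1.32) and Pklr, the liver-type pyruvate kinase, fell in the ileum (-1.26). The median log2 fold change of the list was 0.19 in the jejunum and -0.33 in the ileum. Between regions Hk1 and Hk2 were higher in the ileum at both ages, by 2.11 and 1.87 at P6 and by 1.38 and 1.36 at P36.

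The reversible steps are shared by glycolysis and gluconeogenesis. Of 11 tested genes, 7 rose and 0 fell in the jejunum (edgeR, adjusted p), and 7 rose and 2 fell in the ileum, with medians of 1.14 and 0.82. Pgk1 rose by 1.43 and 0.82 and Pgam1 by 1.38 and 1.02 on the log2 scale. Pgam2, a muscle mutase, fell in the ileum (-4.70 ± 0.80, adjusted p = 0.000121) from 302 counts in all to 9, with P6 ileum libraries between 0.441 and 6.68 CPM.

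**Figure D4:**
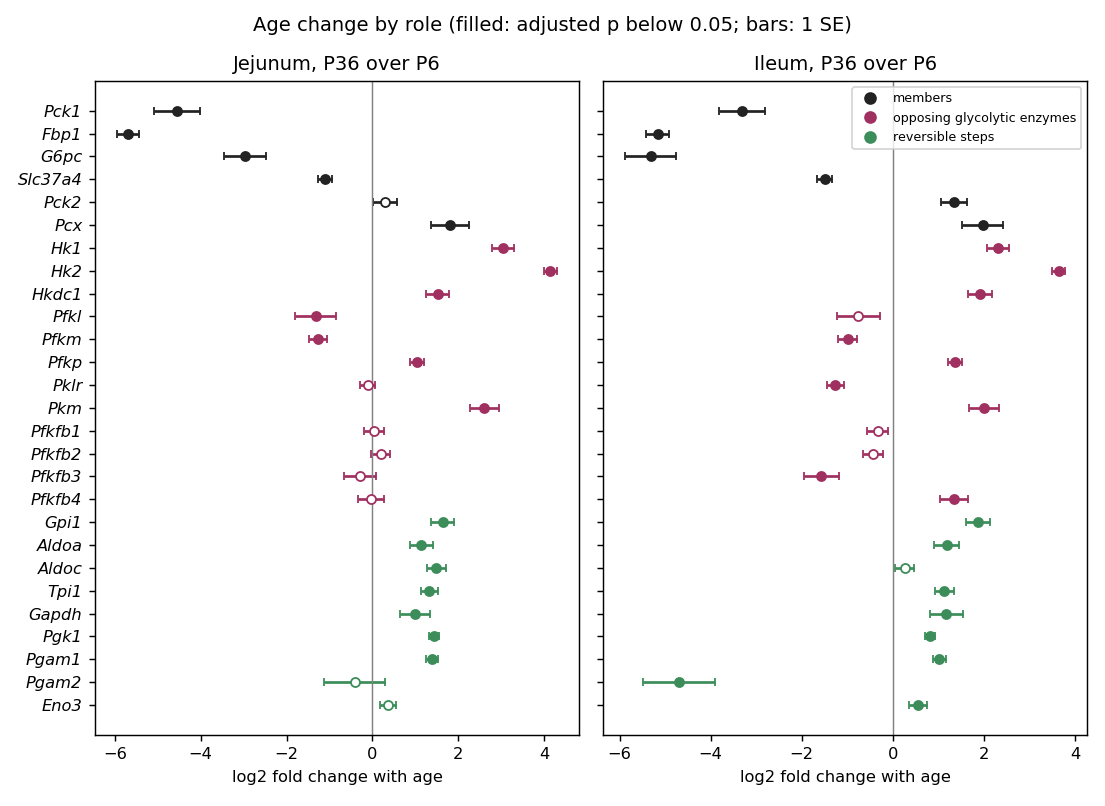
Log2 fold changes from P6 to P36 with 1 SE for the 6 gluconeogenesis genes (black), opposing glycolytic genes (red) and genes of the reversible steps (green) that are reported here. Filled points passed an adjusted p of 0.05. Pck1, Fbp1 and G6pc lie between -5.69 and -2.97, while the largest rises are those of Hk2 and Hk1.

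Of 28 tested genes that supply carbon, 15 were higher and 1 lower in the jejunum at P6, against 11.1% and 14.8% of all tested genes. At P36, 10 were higher and 1 lower, against 8.3% and 7.8%. The median log2 fold changes were 0.73 and 0.44. With scaling by library totals the counts were 8 higher and 5 lower at P6, and 8 higher and 3 lower at P36. Gpt, which turns alanine into pyruvate, stood out at P6, with 126.8 ± 34.5 CPM in its jejunum libraries and 3.54 ± 1.59 CPM in ileum libraries (5.16 ± 0.49, adjusted p = 1.8e-06). With age 14 rose and 5 fell in the jejunum, and 17 rose and 2 fell in the ileum. Glud1, the glutamate dehydrogenase, rose from 83.7 to 912 CPM in the jejunum (3.45 ± 0.19, adjusted p = 5.03e-10). Gpt rose in the ileum (5.40 ± 0.50, adjusted p = 2.03e-07). Pdk4, a kinase that keeps pyruvate from oxidation, fell with Pck1, from 85.2 to 5.29 CPM in the jejunum (-4.02 ± 0.79, adjusted p = 0.000503) and from 17.9 to 1.41 CPM in ileum libraries (-3.66 ± 0.82, adjusted p = 0.0014). Slc25a13, a mitochondrial aspartate-glutamate carrier, fell in both regions (-1.69 and -1.50).

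Of 21 tested regulators of the pathway in liver, 4 rose and 4 fell with age in the jejunum, and 4 rose and 7 fell in the ileum. Cebpa, a factor of liver and fat cells, fell in both regions (-1.63 and -1.20). Nr0b2, the bile acid-induced corepressor known as SHP, was 32.1 ± 9.17 CPM in P6 jejunum and at most 1.49 CPM in any library of the other groups. Klf15, an activator of amino acid breakdown, had 3 counts in P6 jejunum and 503 in the P36 jejunum, in all. Between the regions, 3 regulators were higher and 4 lower in the jejunum at P6, against 11.1% and 14.8% of all genes, and 3 were higher and 1 lower at P36, against 8.3% and 7.8%. With scaling by library totals 1 was higher and 7 were lower at P6, and 3 were higher and 2 lower at P36. At P36 Creb3l3, a hepatic and intestinal factor of fasting, was 408 ± 70.7 CPM in its jejunum libraries and 39.5 ± 48.6 CPM in ileum libraries (3.37 ± 0.71, adjusted p = 0.00404), and Ppargc1a, a coactivator, was 119 ± 9.03 and 24.4 ± 7.79 CPM (2.28 ± 0.43, adjusted p = 0.00174).

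Glucose-6-phosphate can also go to and from glycogen. Of 11 tested glycogen genes, 3 rose and 4 fell with age in the jejunum, and 2 rose and 6 fell in the ileum. Gyg, the primer protein glycogenin, fell in both (-1.90 and -2.21), and Pgm1 rose in both (1.70 and 1.89). Between the regions, 1 was higher and 4 were lower in the jejunum at P6, against 11.1% and 14.8% of all tested genes. At P36, 2 were higher and 2 lower, against 8.3% and 7.8%. With scaling by library totals the counts were 0 higher and 5 lower at P6, and 1 higher and 2 lower at P36. Among the hexose carriers, Slc2a2, the basolateral glucose transporter, was also higher in the jejunum at P6 (2.93 ± 0.47, adjusted p = 0.000272) and at P36 (7.12 ± 0.58, adjusted p = 9.17e-07). It was 325 ± 19.1 CPM in P6 jejunum and 324 ± 32.0 CPM across P36 jejunum libraries, and it fell in the ileum from 42.7 ± 12.6 to 2.37 ± 1.73 CPM (-4.19 ± 0.52, adjusted p = 5.41e-06). The fructose carrier Slc2a5 rose in both regions (2.36 and 4.01), as did the sodium-coupled glucose carrier Slc5a1 (2.07 and 1.63). Slc2a1 was lower in the jejunum at P6 (-2.14 ± 0.40, adjusted p = 0.000883) and did not pass the threshold with age.

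The genes closest to each member over the 16 libraries were found by Pearson's r of log2 CPM, which the 4 groups and the sharing of a mouse by paired libraries largely set, so no p is given. Closest to Pck1 were Dcst1 (r = 0.984) and the lipid droplet and triglyceride genes Cidec (0.981) and Dgat2 (0.970). Closest to Fbp1 were Plin2, a lipid droplet coat protein (0.997), Nsun4 (0.992) and Tdrp (0.991). Plin2 was 978 ± 93.2 CPM across P6 jejunum libraries, 559 ± 132 in the P6 ileum, 75.9 ± 12.5 in P36 jejunum and 50.5 ± 6.67 in the P36 ileum. Closest to Slc37a4 were the apolipoprotein genes Apoa4 (0.984) and Apoc3 (0.982) with Hnf4aos (0.982). G6pc was closest to Acad11 (0.980), Gpr157 (0.977) and Proz (0.970), Pcx to Slc22a18 (0.992), Cdk16 (0.987) and Coro1c (0.983), and Pck2 to Uqcc2 (0.976), Ncaph2 (0.975) and Efna4 (0.972). Among the members, r was 0.820 to 0.944 between Pck1, G6pc, Fbp1 and Slc37a4, 0.758 between Pck2 and Pcx, and below 0 between these sets.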

How the data were processed

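Bulk RNA was measured in 16 libraries of EDTA-released intestinal epithelium, grouped by the age and region in their labels. The authors made stranded mRNA libraries, used Trimmomatic 0.38 for trimming and STAR for alignment to mm10 (2.5.3 in the submitters' processing notes, another version in the paper) and counted read pairs on exons with featureCounts 1.6.3, reverse strand. The deposited values are these raw counts, with exon lengths, per gene.

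Genes kept by filterByExpr (13429 of 24421) were TMM-scaled, and edgeR 4.0.16 (R 4.3.3) fitted them by quasi-likelihood in 1 fit of 4 group means, with Benjamini-Hochberg adjustment over all tested genes. The SE is the log2 fold change over the square root of F. Log2 CPM used a prior count of 2. Replicates are separate mice within a group, and no library repeated another (chi-square per gene between replicates 13.2 to 272). The labels tie the regions of a mouse, and deviations from group means correlated at r = 0.157 to 0.391 within mice, against -0.367 to 0.232 between mice. The mouse block was an alternative.

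Ratios were compared by two-sided exact permutation (Python 3.11.15, numpy 2.4.6). Named genes are the members, up to 2 per list, direction and comparison by adjusted p, all relatives and hexose carriers, and the 3 nearest genes of each member. Hkdc1 was named after its values were seen. Results for some list genes are not reported here. Counts over a list include all its tested genes, while the hexokinase sum in the ratios holds only the genes named, fewer than planned, and was set after values were seen. Members and lists were chosen with earlier results of these data known. Alternatives were other scalings and filters, DESeq2 1.42.0, 8-library fits, the fold minimum, sex as a covariate and each library left out. The edgeR fit was tested on simulated data with planted differences above the fold minimum only, so smaller differences were not covered.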

Additional observations from a re-analysis of the deposited data

Results flagged for a closer look

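G6pc in the P36 jejunum had 1 library far from the others: replicate 2, at 92.1 CPM against 21.1 to 33.1 CPM, with a gap of 0.831 of the group's range. Pcx in the P6 ileum had 1 far below: replicate 4, at 2.26 CPM against 13.6 to 15.7 CPM, with a gap of 0.84 of the range. Both passed Dixon's 95% critical value, in 2 of 36 groups checked, and chance flags about 1 group in 20. Krt8 was 2853 CPM in the first library and 2834 to 2980 CPM in the others of its group. In the second Krt8 was 256 CPM against 1113 to 1331 CPM, and its part in the Pcx value was not tested.

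The regional log2 fold change of G6pc was lower at P6 than at P36 by a tested difference of -2.349 (edgeR, adjusted p = 0.0405). In the 4 mice of each age the jejunum exceeded the ileum by 1.08 to 1.57 on the log2 scale at P6 and by 2.04 to 5.15 at P36.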

How the results depend on the processing

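Of 528 member values under alternatives, 504 kept their direction and side of the threshold, 13 lost the call, 7 gained it and 4 changed sign. Requiring an absolute log2 fold change above 2 left 1, 1, 3 and 3 members called for the P6 regions, P36 regions, jejunum and ileum. For the difference between regional fold changes, leaving out 1 library gave 0 to 2 members called, and leaving out P6 ileum replicates 2 and 4 together, chosen after seeing the data, gave 0. The 4 changes of sign were those of Pcx in this difference: -0.026 with library totals, -0.174 without P6 ileum replicate 4, -0.204 without P36 ileum replicate 1 and -0.28 without both P6 ileum libraries. Leaving out 1 library gave -0.204 to 0.411 for it. Fits of only the 8 libraries compared called G6pc between the P6 regions (1.22, adjusted p = 0.00294) and Pck2 between the P36 regions (-0.534, adjusted p = 0.033) and with age in the jejunum (0.296, adjusted p = 0.0424). Scaling by library totals moved the median of all genes by -0.287 for the P6 regions and -0.137 for the P36 regions, and the members' regional directions held.

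Among ratios, leaving out 1 library gave log2 differences of 0.685 to 0.974 for Fbp1 over phosphofructokinases at P6, 0.036 to 0.652 for G6pc over hexokinases at P6 and 2.21 to 3.42 for Pck1 over Pck2 at P36. The first lost its call without any 1 of the P6 jejunum libraries. The last lost it without any 1 of the P36 jejunum libraries or P36 ileum replicate 3 (adjusted p = 0.0686 for each, exact permutation). In all these fits the groups compared still did not overlap, and an exact test on fewer libraries can take fewer p-values. G6pc over hexokinases passed without P6 ileum replicate 4. With Fbp2 added to Fbp1, chosen after seeing the data, the phosphofructokinase ratio differed by 0.43 at P6 (exact permutation adjusted p = 0.0623, call lost) and by 0.562 at P36 (0.0343, call gained), and the cause was not tested. With the mouse as a replicate block, ratio differences were 2.625 and 2.814 (Pck1 over Pck2 at P6 and P36), 0.821 (Fbp1 at P6) and 3.132 (G6pc at P36). Each had an exact sign-flip p of 0.125, the smallest possible with 4 mice, and an adjusted p of 0.15. In the edgeR fits the block changed 1 member call, G6pc at P6. Of 952 list counts, 796 stayed within 1.5 times, and 156 moved.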
